A study of Homo sapiens with 6 samples.

Results

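A set of 8 genes for lineage transcription factors, named by symbol as PHOX2A, HAND2, GATA2, GATA3, ISL1, TBX2, INSM1 and TFAP2B, was followed in nascent transcription data from SH-SY5Y, the neuroblast-like subline of the human neuroblastoma line SK-N-SH. These 8 were listed by name, with earlier results of these data known, and all 8 were found among the 67051 gene identifiers of the count tables. The assay was PRO-seq, in which polymerases already engaged on DNA are allowed to run on in isolated nuclei and the RNA they make is sequenced, so that a count reflects transcription and not the pool of mature mRNA. The 3 groups of 2 libraries each were cells without treatment, cells given 0.1 mM MPP+ for 0.5 h, and cells given 0.1 mM MPP+ for 24 h. Monoamine transporters carry MPP+ into neurons, where this toxin blocks mitochondrial complex I. All groups were this 1 tumour line. Nothing in the labels ties the 2 libraries of a group to different cultures. The p-values therefore rest on a spread that may be technical.

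Neuroblastoma arises from the sympathoadrenal lineage of the neural crest, and its cells can hold an adrenergic or a mesenchymal state. The adrenergic state is kept by a small circuit of transcription factors that bind their own and each other's enhancers. PHOX2A is a paired-type homeodomain factor of noradrenergic neurons, HAND2 is a basic helix-loop-helix factor that binds E-boxes, and GATA2 and GATA3 are zinc finger factors of that circuit. ISL1 is a LIM homeodomain factor of sympathetic and motor neurons, TFAP2B is an AP-2 factor of the neural crest, TBX2 is a T-box repressor, and INSM1 is a zinc finger factor of neuroendocrine cells.

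The bases just before the start of the 6 members with a promoter in the RefSeq table (GRCh38.p14) are given to show how different the sequences at these starts are. Each run reads 5′ to 3′ on the strand of the gene and holds no base of a GENCODE 29 exon of that gene. It ends before the RefSeq start or, where an exon begins earlier, before that exon. Capitals mark where an E-box (CANNTG), GATAA or an AP-2 palindrome (GCCNNNGGC) was matched on either strand. The table has no entry for TBX2 and INSM1. Where it had more than 1 start, the one nearest the GENCODE 29 gene start was taken. For PHOX2A that RefSeq start, and so the run before it, lies within the longer GENCODE 29 gene.
PHOX2A (chr11:72244177-72244376, minus strand): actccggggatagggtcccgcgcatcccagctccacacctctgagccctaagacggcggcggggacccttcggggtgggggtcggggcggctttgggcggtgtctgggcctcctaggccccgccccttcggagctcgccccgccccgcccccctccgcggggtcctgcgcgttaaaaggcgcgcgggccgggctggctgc
HAND2 (chr4:173530230-173530429, minus strand): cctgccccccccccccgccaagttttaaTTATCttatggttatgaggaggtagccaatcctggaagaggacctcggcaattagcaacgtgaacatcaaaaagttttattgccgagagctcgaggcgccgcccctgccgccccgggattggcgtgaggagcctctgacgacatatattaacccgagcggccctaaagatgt
GATA2 (chr3:128493202-128493401, minus strand): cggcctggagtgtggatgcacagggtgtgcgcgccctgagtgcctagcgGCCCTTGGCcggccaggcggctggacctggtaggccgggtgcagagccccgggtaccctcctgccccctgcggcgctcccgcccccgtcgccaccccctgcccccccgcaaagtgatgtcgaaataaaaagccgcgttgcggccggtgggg
GATA3 (chr10:8045133-8045332, plus strand): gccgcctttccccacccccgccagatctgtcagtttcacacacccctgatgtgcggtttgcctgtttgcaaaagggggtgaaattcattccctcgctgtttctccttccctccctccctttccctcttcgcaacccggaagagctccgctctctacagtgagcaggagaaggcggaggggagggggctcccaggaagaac
ISL1 (chr5:51383198-51383390, plus strand): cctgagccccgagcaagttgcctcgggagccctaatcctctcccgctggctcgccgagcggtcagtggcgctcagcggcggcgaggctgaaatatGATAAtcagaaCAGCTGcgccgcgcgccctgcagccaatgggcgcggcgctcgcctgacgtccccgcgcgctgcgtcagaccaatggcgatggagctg
TFAP2B (chr6:50818621-50818722, plus strand): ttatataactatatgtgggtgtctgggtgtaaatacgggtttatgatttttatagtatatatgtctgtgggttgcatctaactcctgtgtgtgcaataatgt
Their GC content ran from 34.3% in TFAP2B and 55% in HAND2 to 73% in GATA2 and 76% in PHOX2A. The printed runs held 1 E-box, in ISL1, 2 GATAA matches, in HAND2 and ISL1, and 1 AP-2 palindrome, in GATA2. The printed runs have 102 to 200 bases. Over the full 250 bases before these starts, HAND2 and ISL1 held 1 E-box each, and 3 and 2 GATAA matches. GATA2 and GATA3 held 1 AP-2 palindrome each. Over the 250 bases before each of 35116 RefSeq starts, 61.8% of windows held an E-box, 20.4% GATAA and 19.8% the AP-2 palindrome. The matches in the members are thus a description of the letters and no evidence of binding.

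The libraries held between 5983066 and 11707612 counts assigned to genes. Levels are given as CPM, a gene's counts scaled to a common library total after TMM scaling, which corrects the totals for differences in composition, so every change is relative to the other genes of a library. The 8 members together took 0.345% (95% Clopper-Pearson interval 0.341% to 0.349%) and 0.29% (0.286% to 0.294%) of the counts in the untreated libraries, 0.328% (0.325% to 0.331%) and 0.274% (0.271% to 0.278%) at 0.5 h, and 0.316% (0.312% to 0.32%) and 0.253% (0.249% to 0.257%) at 24 h. In each group the first of these values is replicate 1, which lay above replicate 2. Intervals here cover counting error only, since PCR copies are not separated from molecules. For the 6 members with ample counts, counting error came to between 1.63% and 8.5% of the count in a library, as the half-width of an exact Poisson 95% interval.

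TBX2 could not be measured in these tables. It was listed at 0 counts in each of the 6 libraries. In GENCODE 29 the whole of TBX2 (ENSG00000121068.14, chr17:61399896-61409466, plus strand) lies inside TBX2-AS1, a noncoding gene on the other strand (chr17:61393456-61411555). Of 1030 protein-coding genes that lie inside a gene on the other strand and in none on their own, 1025, or 99.5%, had 0 counts in all 6 libraries, against 502 of 7147, or 7.02%, of those that overlap no other gene. The same held for 518 of 520 such genes (99.6%) whose exons touch no exon of any other gene. Reads within a second gene on either strand were thus not assigned to the inner gene, whichever strand they came from, which is what counting over whole genes without strand gives. The 0 of TBX2 is therefore not a level, and no fold change is given for it.

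**Figure D1:**
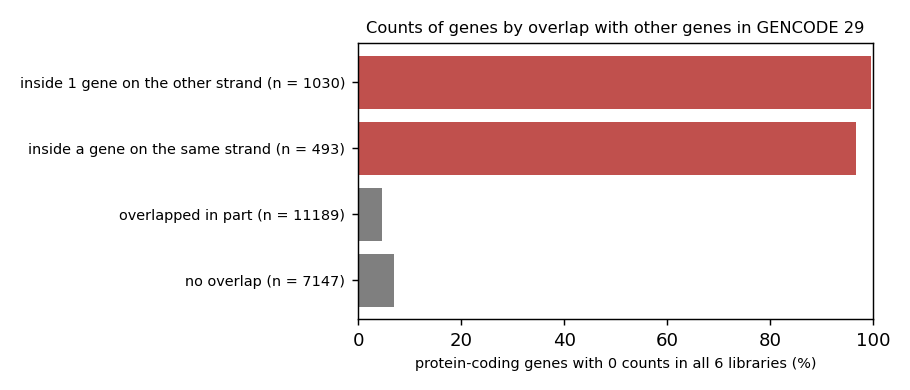
Share of protein-coding genes with 0 counts in all 6 libraries (x axis, percent) by overlap with other genes in GENCODE 29 (y axis). Bars reach 99.5% for genes inside a gene on the other strand and 96.6% for genes inside one on the same strand, against 4.71% for genes overlapped in part and 7.02% for genes without overlap.

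The same way of counting trims other members. Only 2301 of the 5261 bases of HAND2, or 43.7%, are free of another gene, because HAND2-AS1 runs through its first part. GATA2 keeps 71.1% of its bases next to GATA2-AS1, and GATA3 keeps 89.8% because GATA3-AS1 lies inside it. GATA3-AS1 itself was at 0 in all 6 libraries. PHOX2A keeps 99.6%, and ISL1, TFAP2B and INSM1 keep all of theirs. Since strand was not used, the counts of a member include any antisense transcription within its free bases.

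INSM1 (ENSG00000173404.5, chr20:20368121-20370949, plus strand), which has 1 exon and overlaps no gene in GENCODE 29, had hardly any counts. There were 4 and 4 counts in untreated cells, 1 and 1 at 0.5 h, and 1 and 3 at 24 h. The exact Poisson 95% intervals of single libraries reach 10.2 counts in untreated cells, 5.57 at 0.5 h and 8.77 at 24 h. INSM1 did not pass the filter on low counts, so no difference between groups was tested and no fold is given. The tables list 8631 identifiers without GENCODE 29 coordinates, and whether one of them overlaps INSM1 was not tested. INSM2, its paralog, had 68.2 CPM on average in untreated cells.

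To compare genes, CPM was divided by the free bases in kilobases, and by this measure 6 of the members ranked high in untreated SH-SY5Y cells. Each of the 6 stood at or above the 99th percentile of 21022 tested genes, whose median density was 0.863 CPM per kb. Those 21022 are the tested genes above a minimum of free bases. They were not matched to the members by length, and counts near a gene's start were not separated from those further in. PHOX2A was the densest, at 81.2 and 77.2 CPM per kb in the 2 untreated libraries. HAND2 followed with 69.2 and 46.3 CPM per kb, GATA3 with 49.95 and 42.2, and GATA2 with 43.8 and 28.0. ISL1 had 26.7 and 20.5 CPM per kb and TFAP2B 25.5 and 20.4. The order was the same within each of the 2 libraries. Over both libraries together, the values of HAND2 and GATA3, of GATA3 and GATA2, and of ISL1 and TFAP2B overlapped, and those of PHOX2A and HAND2 and of GATA2 and ISL1 did not. The order depends on the length used. Per kb of exon, GATA3 stood first with 359 CPM per kb, PHOX2A second with 291, and HAND2 last with 36.9. Per kb of the whole gene PHOX2A was first, at 78.9 CPM per kb, and HAND2 had 25.3.

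Most paralogs of the members had far lower mean densities in untreated cells. Of the other GATA genes, GATA4 had 1.02 CPM per kb, GATA1 0.234, GATA5 0.0418 and GATA6 0.0319, against 46.1 for GATA3 and 35.9 for GATA2. TFAP2E had 1.25 CPM per kb, TFAP2A 0.378, TFAP2D 0.12 and TFAP2C 0.0189, against 23.0 for TFAP2B. Some paralogs came nearer to the members. HAND1 had 46.5 CPM per kb and INSM2 22.6. ISL2 had 8.87 CPM per kb. Among T-box genes TBX3 had 15.2 CPM per kb, and TBX1, TBX4 and TBX5 had 0.612, 0.269 and 0.0483.

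**Figure D2:**
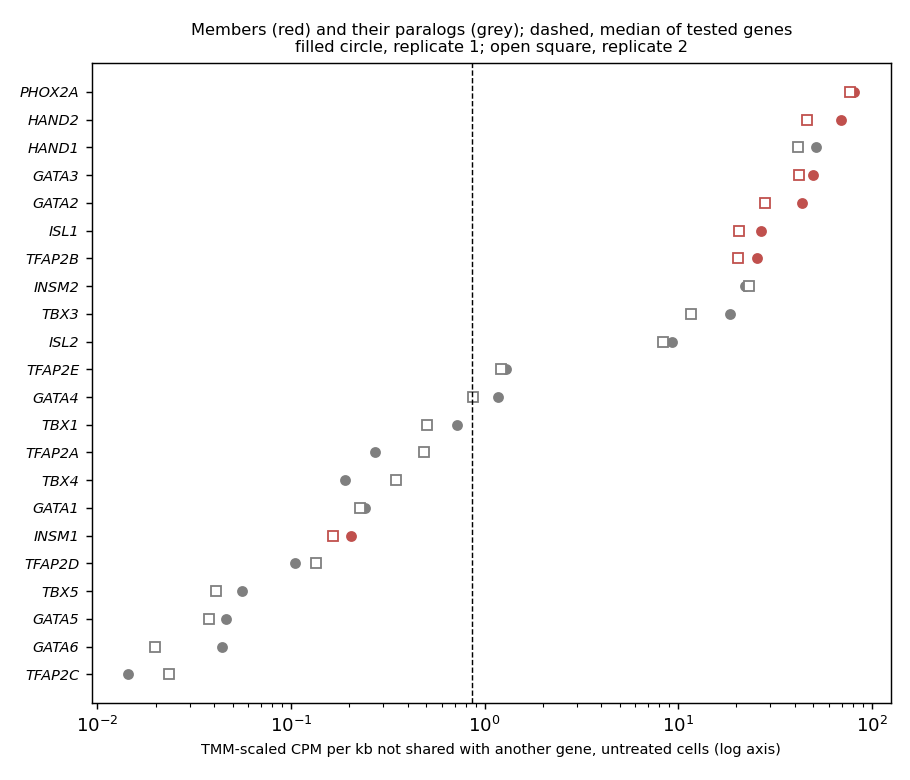
Density in untreated cells (x axis, TMM-scaled CPM per kb of free bases, log scale) of 7 members in red and 15 paralogs in grey (y axis), with a point for each of 2 libraries and a dashed line at the median of tested genes. The other 6 members lie between 20.4 and 81.2 CPM per kb, and INSM1 lies at 0.165 and 0.204.

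The first comparison asked what 0.5 h of MPP+ did to these genes. None of the 6 tested members passed edgeR's quasi-likelihood test, and in each of them the libraries at 0.5 h overlapped those of untreated cells. Over all 23133 tested genes, 0.0735% were called at an adjusted p under 0.05, and 14.4% lay lower and 12.9% higher with no overlap between the libraries. Of the 6 members 0 had an unadjusted p under 0.05, against 2.46% of all tested genes, and DESeq2 also called 0. Their median log2 fold change was -0.067, with 5 of 6 below 0. That of all tested genes was 0.0082, with 47.9% below 0. After 24 h of MPP+, the next comparison, the edgeR fit by group alone passed 0 of 6 members. In it 0 had an unadjusted p under 0.05, and DESeq2 called 0. Over all tested genes 0.0692% were called, 8.1% had such a p, and 18.5% lay lower and 18.8% higher with no overlap. All 6 members overlapped. The median log2 fold change of the members at 24 h was -0.23, with 5 of 6 below 0, beside 0.0023 and 49.6% below 0 over all tested genes. The sign of these medians changed with the library left out. Replicate 1 lay above replicate 2 for each member in every group, so leaving out 1 library also unbalances replicate number. Compared within replicate 1 and within replicate 2, HAND2, GATA2, GATA3, ISL1 and TFAP2B were lower at 24 h than in untreated cells. How many of all tested genes were lower within both was not counted, so this only describes the members. PHOX2A was higher at 24 h in replicate 1. Without untreated replicate 1 the median was 0.10 at 0.5 h and 0.025 at 24 h, and without replicate 2 at 0.5 h or at 24 h it was 0.063 or 0.0032 in that comparison. Without replicate 1 at 0.5 h or at 24 h it was -0.21 or -0.46, and without untreated replicate 2 -0.21 at 0.5 h and -0.39 at 24 h. The 2 comparisons share the untreated libraries. With replicate number as a block in the fit, edgeR called 4 of 6 members lower at 24 h than in untreated cells. These were GATA2, GATA3, ISL1 and TFAP2B, with edgeR adjusted p from 0.0125 to 0.0488. That fit called 685 of all 23133 tested genes at 24 h. The labels tie the replicate numbers to no shared culture or day. Other edgeR calls given below are from the fit by group unless the block is named.

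**Figure D3:**
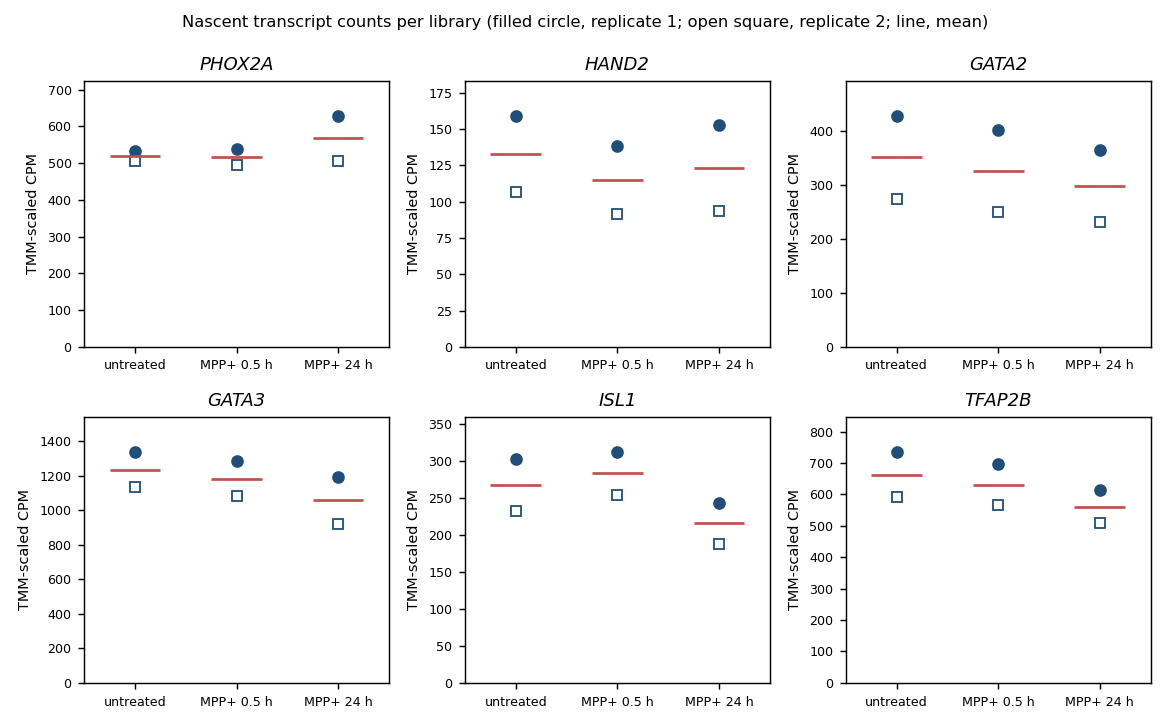
TMM-scaled CPM (y axis, from 0) of the 6 tested members in untreated cells, at 0.5 h and at 24 h of MPP+ (x axis), with a filled circle for replicate 1, an open square for replicate 2 and a line at the mean. In every panel the circle lies above the square, and only for ISL1 do both libraries at 24 h lie below both at 0.5 h.

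PHOX2A (ENSG00000165462.5, chr11:72239077-72245664, minus strand), an activator of the noradrenaline synthesis gene DBH, varied least. It had 533 and 506 CPM in untreated cells, 538 and 496 CPM at 0.5 h and 629 and 506 CPM at 24 h. Replicate 1 at 24 h was the high library, and the other 5 lay within 496 to 538 CPM. The log2 fold change over untreated cells was -0.0076 ± 0.13 (SE, 95% interval -0.31 to 0.29) at 0.5 h and 0.13 ± 0.13 (-0.17 to 0.43) at 24 h. It was the only member with a log2 fold change above 0 at 24 h, and its adjusted p by edgeR was 0.9996 at 0.5 h and 0.859 at 24 h. Without 24 h replicate 1 the value at 24 h was -0.037.

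HAND2 (ENSG00000164107.9, chr4:173524969-173530229, minus strand) is needed in mouse for sympathetic neurons to become noradrenergic. It had 159 and 107 CPM in untreated cells, 138 and 91.2 CPM at 0.5 h and 153 and 93.4 CPM at 24 h. The spread within a group exceeded the differences between group means. Log2 fold changes were -0.20 ± 0.27 (-0.81 to 0.40) at 0.5 h and -0.10 ± 0.27 (-0.71 to 0.50) at 24 h, with edgeR adjusted p = 0.9996 and 0.955.

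GATA2 (ENSG00000179348.12, chr3:128479427-128493185, minus strand) and GATA3 (ENSG00000107485.18, chr10:8045378-8075203, plus strand) had lower means at each later time. GATA2 had 428 and 274 CPM in untreated cells, 402 and 251 CPM at 0.5 h and 365 and 232 CPM at 24 h. GATA3 had 1338 and 1132 CPM in untreated cells, 1285 and 1082 CPM at 0.5 h and 1194 and 921 CPM at 24 h. The libraries of the groups overlapped throughout. At 24 h the log2 fold change of GATA2 was -0.23 ± 0.28 (-0.87 to 0.41, edgeR adjusted p = 0.887). That of GATA3 was -0.22 ± 0.16 (-0.59 to 0.15, adjusted p = 0.779). At 0.5 h they were -0.10 ± 0.28 and -0.061 ± 0.16, both with an edgeR adjusted p of 0.9996.

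ISL1 (ENSG00000016082.15, chr5:51383391-51394738, plus strand) had the lowest log2 fold change of the 6 at 24 h. It had 303 and 233 CPM in untreated cells, 313 and 254 CPM at 0.5 h and 243 and 188 CPM at 24 h. Both 24 h libraries lay below both 0.5 h libraries, which was so for 19% of all tested genes, and 1 of them lay within the untreated range. The log2 fold change over untreated cells was 0.083 ± 0.17 (-0.30 to 0.47) at 0.5 h and -0.31 ± 0.17 (-0.70 to 0.079) at 24 h, with edgeR adjusted p = 0.9996 and 0.707. The third comparison, 24 h over 0.5 h, gave -0.39 ± 0.17 (-0.78 to -0.0052) for ISL1, with an unadjusted p of 0.0476 and an adjusted p of 0.768. It was the 1 member of 6 with an unadjusted p under 0.05, as 6.42% of all tested genes had, and edgeR and DESeq2 called 0 of 6 members and 0% of all genes here. With replicate number as a block, edgeR called 412 genes in this comparison, ISL1 among them as lower.

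TFAP2B (ENSG00000008196.13, chr6:50818723-50847613, plus strand) had 736 and 591 CPM in untreated cells, 697 and 565 CPM at 0.5 h and 615 and 508 CPM at 24 h. As for GATA3, the 24 h mean was the lowest and the groups overlapped. The log2 fold change was -0.072 ± 0.16 (-0.43 to 0.29) at 0.5 h and -0.24 ± 0.16 (-0.60 to 0.12) at 24 h, with edgeR adjusted p = 0.9996 and 0.754. In 24 h over 0.5 h, the log2 fold changes of the 5 members other than ISL1 lay between -0.17 and 0.14.

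**Figure D4:**
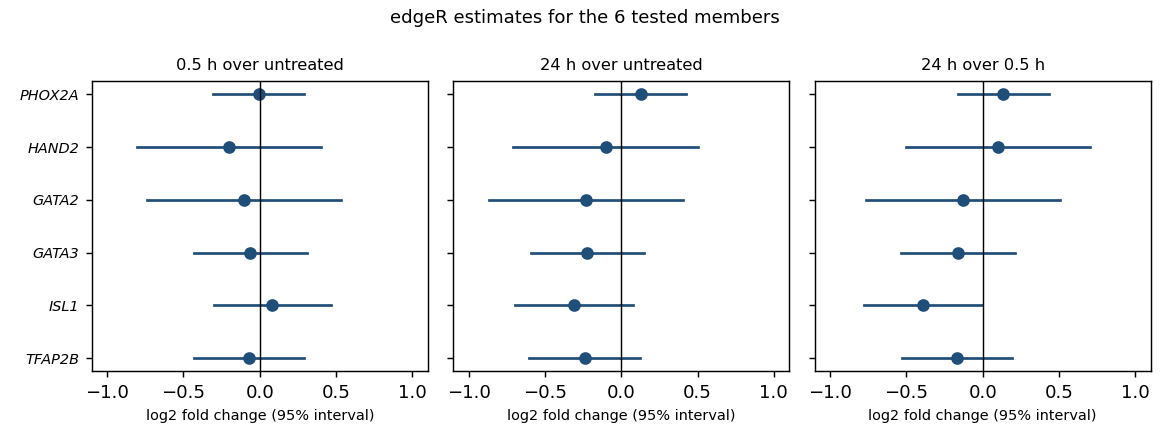
Log2 fold changes (x axis) of the 6 tested members (y axis) with 95% intervals from the edgeR fit, for 0.5 h over untreated, 24 h over untreated and 24 h over 0.5 h. Every interval includes 0 except that of ISL1 in 24 h over 0.5 h, which ends at -0.0052.

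A test that misses its threshold does not show that a gene was unaffected, and the intervals say what sizes remain possible. Over both comparisons with untreated cells they reach from -0.87 to 0.53 on the log2 scale, widest for GATA2 and narrowest for PHOX2A. In simulated data of this design at 24 h against untreated cells, with 23133 genes, edgeR called 31.3% of genes changed 1.5-fold and 79.1% of those changed 2-fold. There 67 genes were changed at each of these folds, drawn from those with a mean of at least 50 counts. No difference between replicate numbers was built in. These shares are averages over such genes and are not the power for any member. In bulk libraries fewer cells of a type and less RNA per cell cannot be told apart.

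For 5 of the 6 members, all but PHOX2A, the 2 untreated libraries differed by more than the fold change at either time. On the log2 CPM scale, replicate 1 exceeded replicate 2 by 0.65 in untreated cells, 0.68 at 0.5 h and 0.66 at 24 h for GATA2, and by 0.58, 0.60 and 0.71 for HAND2. ISL1 had differences of 0.38, 0.30 and 0.37, TFAP2B of 0.32, 0.30 and 0.28, and GATA3 of 0.24, 0.25 and 0.38. PHOX2A had the smallest in untreated cells and at 0.5 h, 0.073 and 0.12, and 0.31 at 24 h. Replicate 1 was the higher library in all 3 groups for 6 of 6 members, as for 21.7% of all tested genes. Median differences in untreated cells, at 0.5 h and at 24 h were -0.11, -0.058 and -0.036 over tested genes spanning under 10 kb, the class of PHOX2A and HAND2. Over genes of 10 to 50 kb, the class of the other 4, they were -0.029, -0.026 and -0.016, and over genes of at least 50 kb 0.049, 0.045 and 0.027. What sets replicate 1 apart was not tested.

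**Figure D5:**
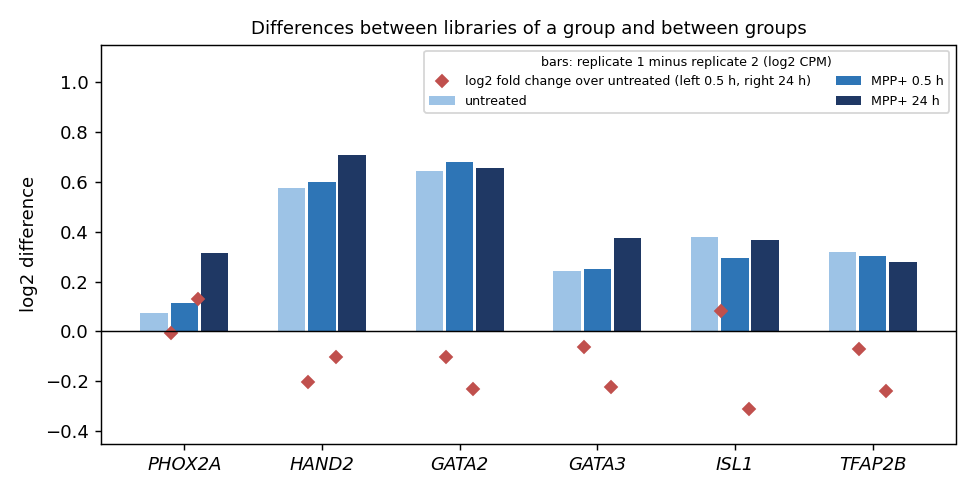
Differences on the log2 scale (y axis) for each tested member (x axis). Bars give replicate 1 minus replicate 2 in untreated cells, at 0.5 h and at 24 h, diamonds the log2 fold change over untreated cells, and for GATA2 the bars reach 0.65 to 0.68 while its diamonds stand at -0.10 and -0.23.

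By the root mean square difference of centred log2 CPM over the 6 libraries, GATA3 and TFAP2B were the most alike of the members, at 0.039, followed by HAND2 and GATA2 at 0.093, and PHOX2A and GATA2 were the least alike at 0.293. Among 13606 other named genes with a mean of at least 100 counts, the closest profile to TFAP2B was that of IP6K2 (0.018), to PHOX2A that of RUNDC3B (0.025), and to GATA3 that of RPS16 (0.032). The closest to ISL1 was MCM4 (0.034), to HAND2 FBXO32 (0.042), and to GATA2 the T-box gene TBX3 (0.05). All genes share the same libraries and their depth, so closeness is a description only.

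The noncoding genes beside the members were transcribed too. HAND2-AS1 had 894 and 716 CPM in untreated cells, 872 and 733 CPM at 0.5 h and 787 and 631 CPM at 24 h. ISL1-DT, which starts 59 bases from ISL1 and is read the other way, had 242 and 251 CPM in untreated cells, 253 and 267 CPM at 0.5 h and 265 and 234 CPM at 24 h. Its density of 23.3 CPM per kb in untreated cells was close to the 23.6 of ISL1, yet its log2 fold change at 24 h was 0.018 ± 0.11, beside -0.31 ± 0.17 for ISL1. The difference between the 2 was not tested. GATA2-AS1 had 173 and 121 CPM in untreated cells, 194 and 128 CPM at 0.5 h and 195 and 110 CPM at 24 h. TBX2-AS1, counted over the 2089 bases it shares with no gene, had 31.5 and 31.8 CPM in untreated cells, 24.3 and 25.3 CPM at 0.5 h and 28.3 and 29.6 CPM at 24 h. None of the 4 tested neighbours passed in any comparison.

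Other transcription factors of the adrenergic state were set beside the members. Of 19 listed, 19 were tested and 0 passed in any of the 3 comparisons. Their median log2 fold change was 0.043 at 0.5 h, with 12 above 0 and 7 below, and -0.056 at 24 h, with 7 above and 12 below. The densest, at 96.6 CPM per kb in untreated cells, was SOX11, a factor of neural progenitors, with 441 and 245 CPM in untreated cells, 477 and 278 CPM at 0.5 h and 352 and 203 CPM at 24 h. ZNF536 and KLF7 averaged 589 and 371 CPM in untreated cells, and at 24 h had log2 fold changes of -0.14 ± 0.12 and -0.17 ± 0.12. TCF3, an E-protein partner of bHLH factors, had the smallest adjusted p of the list at 24 h, 0.279 by edgeR, with 162 and 140 CPM in untreated cells, 125 and 119 CPM at 0.5 h and 104 and 102 CPM at 24 h. It was chosen after its values were seen.

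Genes of the noradrenergic phenotype that such factors act on were listed as 15, of which 14 were tested and 0 passed. At 24 h their median log2 fold change was -0.078, with 5 above 0 and 9 below. By CPM the leading ones were the receptor tyrosine kinase gene ALK, the RNA-binding protein gene ELAVL4, the neuronal microtubule regulator gene STMN2 and the receptor gene RET. Their log2 fold changes at 24 h were -0.13 ± 0.15, -0.095 ± 0.19, -0.18 ± 0.14 and -0.24 ± 0.30. DBH, which converts dopamine to noradrenaline, averaged 240 CPM in untreated cells, 218 CPM at 0.5 h and 209 CPM at 24 h, whereas TH, the first enzyme of catecholamine synthesis, held between 2 and 10 counts in a library.

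Markers of other states and cells were set beside the members. Of 15 mesenchymal-state genes 13 were tested and 0 passed, and their summed level ran from 1618 to 2117 CPM in untreated cells, 1621 to 2092 at 0.5 h and 1513 to 1835 at 24 h. Most of that sum was TWIST1, a bHLH factor, with 1754 and 1286 CPM in untreated cells, 1691 and 1281 at 0.5 h and 1460 and 1147 at 24 h. At 24 h, 8 of the 13 had a log2 fold change above 0 and 5 below, with a median of 0.059. NOTCH2, a receptor gene, had 53.2 and 42.6 CPM in untreated cells, 56.5 and 52.7 CPM at 0.5 h and 65.8 and 64.9 CPM at 24 h, with a log2 fold change at 24 h of 0.45 ± 0.12 and an edgeR adjusted p of 0.522. The transcription factor genes RUNX2 and SNAI2 averaged 63.9 and 62.2 CPM in untreated cells and had log2 fold changes at 24 h of -0.10 ± 0.12 and -0.15 ± 0.31. VIM and PRRX1, also on this list, held 6 to 19 and 4 to 13 counts in a library. RUNX1, WWTR1, FN1 and YAP1 of the same list averaged 35.4, 33.9, 27.2 and 7.94 CPM in untreated cells. Of 9 midbrain dopaminergic factors 3 were tested and 0 passed, with summed levels of 9.64 to 10.3 CPM in untreated cells, 9.51 to 10.8 at 0.5 h and 14.1 to 15.35 at 24 h. LMX1B had 3.17 and 4.91 CPM in untreated cells, 5.71 and 4.36 CPM at 0.5 h and 8.62 and 8.25 CPM at 24 h, with edgeR adjusted p = 0.509 for 24 h over untreated. Lists for Schwann cells, fibroblasts, endothelium and blood had summed levels of at most 36.1, 147, 51 and 15.55 CPM in untreated cells, 35.1, 154, 46.3 and 17.5 at 0.5 h, and 41.3, 169, 50.2 and 18.2 at 24 h. No gene of these 4 lists passed. The Schwann cell genes FOXD3 and SOX10 were at 0 in all libraries, SOX10 lying inside another gene, and so were CD68 and HBG1 of the blood list. The part of any of these in the levels of the members was not tested.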

How the data were processed

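The members and gene lists were chosen with earlier results of these data known. Among the tools in the submitters' processing notes are featureCounts 2.0.1, SAMtools 1.13, Bowtie2 2.4.2 and cutadapt 1.16.5, with build hg38. No source used here gives the annotation release, strand or feature settings. The deposited files hold raw counts per gene for each library, and were whole numbers. The authors' 2 tables of differential genes were not used.

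Identifiers were named from a gene name table (42061) or GENCODE 29 (16489), and 8501 had no symbol. Coordinates are GENCODE 29, which is also build hg38 (GRCh38). Free bases are those that no other GENCODE 29 gene overlaps on either strand. This length was taken after the counts showed that inner genes read 0, and exon length and gene span are alternatives. Counts were filtered with filterByExpr, which left 23133 genes and 6 of the 8 members, scaled by TMM and fitted in edgeR 4.0.16 (R 4.3.3) on all 6 libraries by group, with two-sided quasi-likelihood tests and Benjamini-Hochberg adjustment over all tested genes at 0.05. The SE is the absolute log2 fold change over the square root of F. DESeq2 1.42.0, other normalizations and filters, a replicate block and leaving out libraries were alternatives. Genes named beside the members were the 4 of highest CPM in a list (some are given only within a list), and the closest profile to each member. The other paralogs, DBH, TH, TCF3, SATB1, VIM, PRRX1, RUNX1, WWTR1, FN1, YAP1, FOXD3 and SOX10 were named outside that rule, after their values were seen. Some listed genes are not reported here. The fit was tested on simulated data. Library totals ran from 5983066 to 11707612. Replicates were no copies, since chi-square over its degrees of freedom was 5.65 in untreated cells, 9.1 at 0.5 h and 4.15 at 24 h.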

Additional observations from a re-analysis of the deposited data

How the results depend on the processing

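No member passed without any 1 library, or under the other normalizations, filters and DESeq2. With the replicate number as a block, 4 of 6 members were called lower at 24 h than in untreated cells, GATA2 (log2 fold change -0.24, adjusted p = 0.0488), GATA3 (-0.23, 0.0223), ISL1 (-0.31, 0.0125) and TFAP2B (-0.24, 0.0247), and 1 at 24 h than at 0.5 h, ISL1 (-0.40, 0.00389). The labels tie the numbers to no shared culture or day. Over 23133 genes the difference of replicate 1 from replicate 2 correlated at r = 0.328 between 0.5 h and untreated, 0.293 between 24 h and untreated and 0.312 between 24 h and 0.5 h. Over all genes the block gave 57, 685 and 412 calls for 0.5 h over untreated, 24 h over untreated and 24 h over 0.5 h, against 17, 16 and 0 without it. No filter gave 66, 245 and 73, and DESeq2 gave 31 for 24 h over untreated. Leaving out 1 library gave 9 (without 0.5 h replicate 1) to 19 calls at 0.5 h, and 8 (without untreated replicate 1) to 16 at 24 h, with 10 without 24 h replicate 1. In the other lists the block called SOX11 and TCF3 lower, TWIST1 lower, NOTCH2 higher and LMX1B higher at 24 h over untreated, and SOX11, SATB1 and STMN2 lower at 24 h over 0.5 h. Among these, no filter called TCF3 lower and LMX1B higher at 24 h over untreated and SATB1 lower at 24 h over 0.5 h, so 0 calls in those lists holds only for the other alternatives. SATB1 has only 206 of its 100202 bases free of another gene and held 14 to 60 counts in a library. Its calls rest on that stretch.

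Leaving out 1 library moved log2 fold changes of members across 0 for some members. At 0.5 h over untreated they ran from -0.066 to 0.046 for PHOX2A, -0.54 to 0.11 for HAND2, -0.48 to 0.25 for GATA2, -0.19 to 0.064 for GATA3, -0.10 to 0.28 for ISL1 and -0.23 to 0.095 for TFAP2B. At 24 h over untreated they ran from -0.037 to 0.28, -0.51 to 0.21, -0.60 to 0.13, -0.42 to -0.050, -0.51 to -0.11 and -0.40 to -0.074 in the same order. At 24 h over 0.5 h they ran from -0.031 to 0.29, -0.30 to 0.44, -0.49 to 0.25, -0.36 to 0.015, -0.59 to -0.22 and -0.31 to -0.0096. Without untreated replicate 1 HAND2 and GATA2 stood at 0.21 and 0.13 at 24 h over untreated, and without 24 h replicate 1 at -0.51 and -0.60. Without a filter PHOX2A stood at 0.0083 at 0.5 h over untreated. Over every alternative for these fold changes, 205 kept direction and side of the threshold, 24 changed direction and 5 passed, all 5 with the block. Low counts, whose reason was not tested, limit INSM1, and overlap with other genes limits TBX2 and, in part, HAND2.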

Other observations

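Among the genes listed beside the members, some others read 0 in all 6 libraries because of where they lie. IRF1, an interferon response factor counted with the mesenchymal state, SOX10 of Schwann cells, CD68 of macrophages and GATA3-AS1 each have 0 bases free of another gene in GENCODE 29 and 0 counts in every library. FOXD3 and HBG1 have free bases, 685 and 191, and also had 0 counts. These genes were picked after their values were seen.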
